A study of Homo sapiens with 34 samples.

Results

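The 10 genes described here carry iron into the cell, move it to the mitochondrion, store it, export it or adjust these steps to the iron supply. They were taken by name from a table of 20255 genes: TFRC, TFR2, STEAP3 and SLC11A2 for uptake, SLC25A37 for mitochondrial import, FTH1 and FTL for storage, SLC40A1 for export, and IREB2 and ACO1 for regulation. All 10 were in the table and all 10 passed the filter on low values. The RNA came from H1, an established line of human embryonic stem cells, and filled 34 samples of 12 populations. The unsorted populations were undifferentiated H1 cells without treatment (1 sample, so without a replicate check), embryoid bodies at day 0, and differentiating cells at days 2 and 4. Day 0 was the day on which attachment under BMP4 and VEGF began. From day 6 the cells were sorted on CD43, a surface glycoprotein of blood cells, into CD43+ and CD43- cells at days 6, 9 and 12, and into CD43+/CD45+ and CD43-CD45- cells at day 16, called day 16 CD43+ and CD43- cells below. A comparison of day 16 with an earlier day thus changes the day and the sort together, and these cannot be told apart. All cultures were started with BMP4 and VEGF, per the labels VEGF was their sole growth factor from day 3, and no haematopoietic cytokine was added. Each population from day 0 had 3 independent biological replicates.

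Erythroid cells take in iron as transferrin bound to the transferrin receptor, which TFRC encodes. Iron freed in the endosome is reduced by the ferrireductase STEAP3 and carried into the cytosol by the transporter SLC11A2, and SLC25A37, or mitoferrin, brings it into the mitochondrion, where haem is made. TFR2 encodes a second transferrin receptor, found in erythroid precursors and liver. Cells store iron inside a shell of the ferritin heavy chain FTH1 and light chain FTL, and release it through ferroportin, encoded by SLC40A1. Macrophages recover iron from the haem of old red cells and either store or export it. IREB2 and ACO1 encode the iron regulatory proteins, which bind a short hairpin, the iron-responsive element, when iron is scarce. An element in the 5′ UTR holds back translation, and elements in the 3′ UTR of TFRC protect its mRNA.

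These elements are shown because those in a 5′ UTR act on translation, which mRNA values do not record, while those of TFRC act on its mRNA. The transcripts of GENCODE v29 on GRCh38 were searched, on the sense strand only, for the letters C, then 5 stem letters, then CAGTGN, then 5 letters that pair with the stem by Watson-Crick or G-T pairs. The capitals below mark the loop letters, and T stands for U.

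FTH1, 5′ UTR, chr11:61967580-61967596, minus strand: cttcaaCAGTGCttgga
FTL, 5′ UTR, chr19:48965341-48965357, plus strand: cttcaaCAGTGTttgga
SLC40A1, 5′ UTR, chr2:189580667-189580683, minus strand: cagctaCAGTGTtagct
TFRC, 3′ UTR, chr3:196050985-196051001, minus strand: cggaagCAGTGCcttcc
TFRC, 3′ UTR, chr3:196050581-196050597, minus strand: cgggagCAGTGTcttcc
TFRC, 3′ UTR, chr3:196050516-196050532, minus strand: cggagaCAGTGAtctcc
TFRC, 3′ UTR, chr3:196050469-196050485, minus strand: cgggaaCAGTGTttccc

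The letters were found in 4 of the 10 genes, against 1.48% of 19702 genes with a coding transcript. TFRC held 4 of them in its 3′ UTR, and FTH1, FTL and SLC40A1 held 1 each in the 5′ UTR. The stem and loop letters of FTH1 and FTL differed only in the last loop letter. The SLC40A1 match lay in 1 of its 5 coding transcripts, and the other 3 genes in 7 of 8 transcripts for FTH1, the only one for FTL and 3 of 4 for TFRC. A match is a description of letters, and the other 6 genes held none in this search. The search allowed no mismatch in the stem and can miss elements of another form. EPAS1, which is known to hold an element and was searched too, gave no match. A gene without a match may thus still carry an element.

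The values are GC-normalized tag counts, in which the sorted values were identical in all 34 samples, so a value is close to a rank among genes of similar GC content. The depth of the libraries is unknown, and since the values are not per length, they are compared between samples and not between genes. The labelled populations were checked against marker lists. The summed value of 16 erythroid markers lay between 141926 and 167452 in day 6 CD43+ samples and between 204258 and 351307 on day 9, and between 11075 and 55160 on days 12 and 16. The summed value of 14 macrophage markers lay between 862 and 3831 in CD43+ samples of days 6 and 9 and between 28802 and 110949 on days 12 and 16. The CD43+ cells of days 12 and 16 were not macrophages alone, since 10 neutrophil markers summed to between 257109 and 322793 there. The 8 megakaryocyte markers summed to 10176 to 15104 in CD43+ samples of day 6, 37674 to 42585 on day 9, 11744 to 42934 on day 12 and 26000 to 97025 on day 16. Day 16 CD43- samples also held blood markers, with 5852 to 9643 for the erythroid list, 8166 to 28187 for the neutrophil list and 4818 to 14756 for the megakaryocyte list. Day 12 CD43- replicates 1, 2 and 3 held 441, 6585 and 8665 for the macrophage list and 458, 1603 and 9223 for the neutrophil list. On day 6 the macrophage list summed to 603 to 3495 in CD43- and 862 to 1280 in CD43+ samples. RNA came from mixed cells, so fewer cells of a type and less RNA per cell cannot be told apart.

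**Figure D1:**
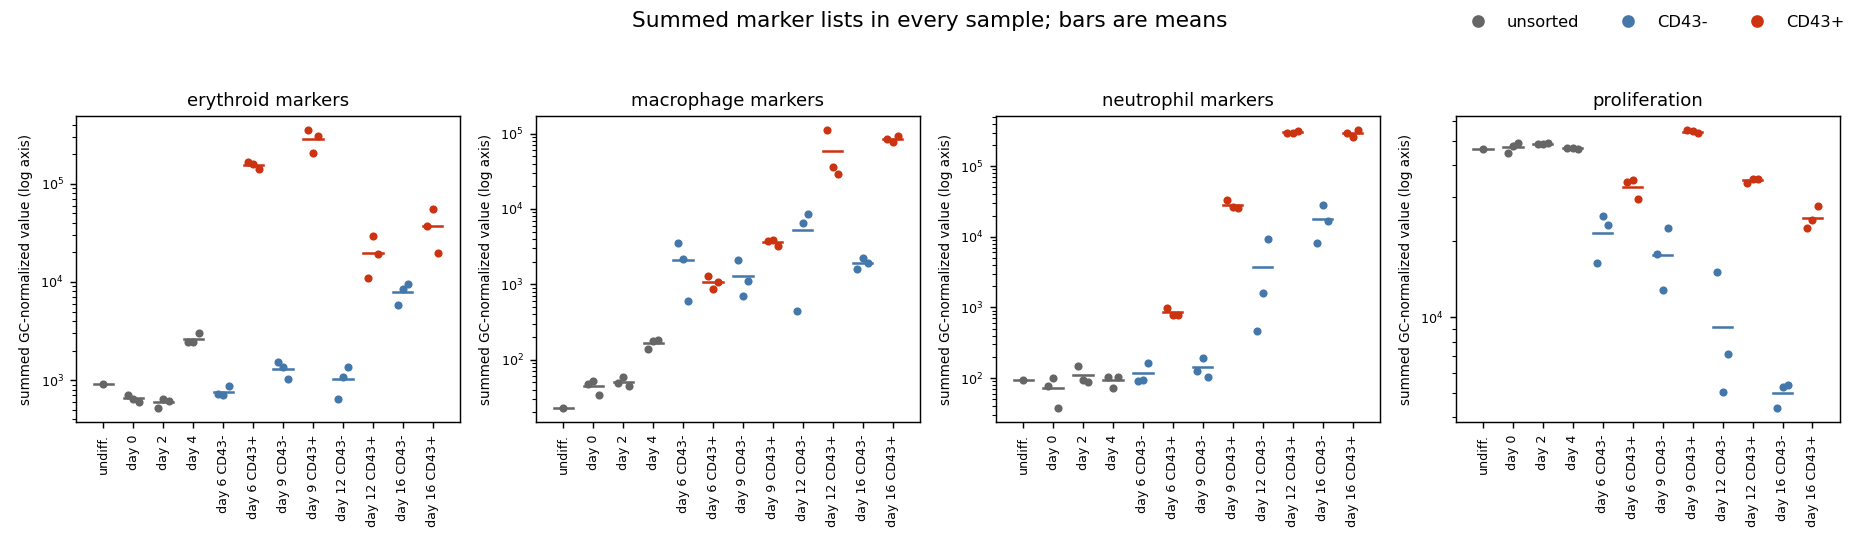
Summed GC-normalized values of the erythroid, macrophage, neutrophil and proliferation lists (log axis) in every sample of the 12 populations; points are samples and bars are means. Erythroid sums of CD43+ cells are highest on days 6 and 9 (141926 to 351307), and macrophage sums on days 12 and 16 (28802 to 110949).

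The CD43+ cells of days 6 and 9 carried more mRNA of TFRC, TFR2, STEAP3 and SLC25A37 than the CD43- cells of the same cultures. On day 16 TFR2, STEAP3, SLC25A37 and the ferritin genes were higher in CD43+ cells. ACO1, IREB2 and, less firmly, SLC11A2 were lower there, and TFRC values overlapped. A gene passed the test at a Benjamini-Hochberg adjusted p below 0.05 in limma over 19788 genes, and was called when its fold change was also above 4. On day 6, 4 of the 10 genes were called higher in CD43+ cells, where 4.68% of all genes were, and 0 lower (7.85% of all genes). On day 9 the same 4, TFRC, TFR2, STEAP3 and SLC25A37, were called higher (8.65% of all genes) and 0 lower (12.8%). On day 12 the calls were TFR2 and STEAP3, 2 higher (11.8% of all genes) and 0 lower (14.4%). On day 16 they were TFR2, STEAP3 and FTH1, 3 higher (12.2% of all genes) and 0 lower (13.6%). The 2 of 10 on day 12 and the 3 of 10 on day 16 were thus nearer to the shares of all genes than the earlier counts. The median log2 fold change of the 10 genes was 0.88, 0.82, 0.82 and 0.23 on days 6, 9, 12 and 16, beside 0.14, 0.24, 0.21 and 0.14 over all genes.

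**Figure D2:**
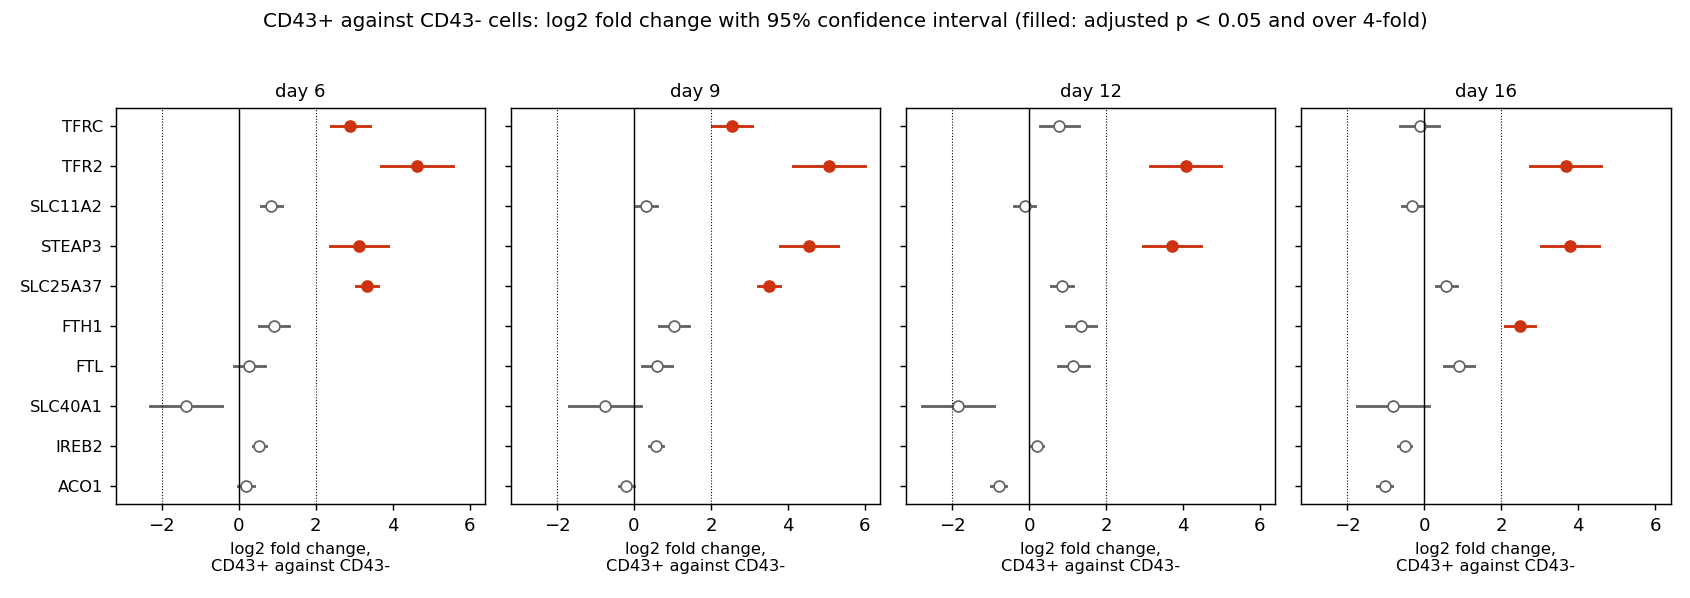
Log2 fold change of each gene in CD43+ against CD43- cells on each day, with its 95% confidence interval; filled red points were called (adjusted p below 0.05 and over 4-fold), and dotted lines mark 4-fold. TFR2 and STEAP3 are called on all 4 days, TFRC and SLC25A37 on days 6 and 9, and FTH1 on day 16 only.

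TFRC, the transferrin receptor of dividing and haemoglobin-making cells, was 7.47-fold higher in CD43+ than in CD43- cells on day 6. Its values in day 6 CD43+ samples were 11495, 7476 and 5775, and those in CD43- samples were 888, 939 and 1426. The groups were far apart, although the CD43+ replicates themselves spread 2-fold. Replicate 3, the lowest, had the highest summed value of 9 mesenchymal markers (155274, against 58868 and 73647 in replicates 1 and 2). It also had the lowest erythroid sum (141926, against 167452 and 160552). The part of these cells in the TFRC spread was not tested. The log2 fold change was 2.90 ± 0.25 (SE, adjusted p = 3.64e-10 in limma). On day 9 the CD43+ samples held 14665, 11495 and 10817 and the CD43- samples 1793, 3481 and 1448, a log2 fold change of 2.55 ± 0.25 (adjusted p = 1.25e-09). The gap narrowed from there on. On day 12 the values were 7024, 9227 and 8262 in CD43+ and 3536, 6688 and 4422 in CD43- cells, a difference of 0.79 ± 0.25 that passed the test (adjusted p = 0.007) and missed it without replicate 1 of the CD43- cells (0.58, adjusted p = 0.0598). On day 16 the CD43+ samples (5697, 5474 and 6134) overlapped the CD43- samples (6134, 6575 and 6063), with a difference of -0.12 and a 95% interval from -0.63 to 0.39.

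TFR2 was called higher in CD43+ cells at all 4 time points, by 12.78- to 33.65-fold. Of the 16 erythroid markers, 15 were also called higher there on days 6, 9 and 12 and 11 on day 16, and 0 lower. Other blood lists were called higher too. In day order these were 7, 8, 8 and 8 of 8 megakaryocyte markers and 4, 7, 10 and 10 of 10 neutrophil markers, with 0 lower. Of 14 macrophage markers they were 2, 8, 14 and 14, with 1 lower on days 6 and 9. The part of erythroid or other blood cells in the TFR2 values was not tested. The CD43+ samples held 643, 560 and 474 on day 6, 1161, 830 and 679 on day 9, 64, 200 and 182 on day 12, and 412, 412 and 290 on day 16. The CD43- samples held between 2 and 44 on these days. No CD43- sample reached the lowest CD43+ sample of its day, 64 on day 12. In day order the log2 fold changes were 4.64, 5.07, 4.07 and 3.68, each with an SE of 0.45, and adjusted p ranged from 2.23e-10 to 5.91e-08 in limma.

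STEAP3, the ferrireductase that prepares endosomal iron for transport, behaved like TFR2 in being called on all 4 days. Its CD43+ values were 649, 610 and 490 on day 6, 1128, 698 and 960 on day 9, 192, 290 and 358 on day 12, and 134, 160 and 167 on day 16. In CD43- cells they were 104, 88 and 30 on day 6, and 7, 10 and 15 on day 16. Both populations thus held less of it late than early, and the groups did not overlap on any day. In the same order the log2 fold changes were 3.13, 4.55, 3.71 and 3.78 (SE 0.37, adjusted p between 3.34e-11 and 8.35e-08). Undifferentiated cells held 782 and the day 0 and day 2 samples 556 to 632, so that a high STEAP3 value was not particular to blood cells.

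SLC11A2, which moves the reduced iron across the endosomal membrane, differed least among the uptake genes. It ranged from 750 to 1697 over all 34 samples. It was 0.84 ± 0.13 higher on the log2 scale in day 6 CD43+ cells (1615, 1511 and 1516) than in CD43- cells (834, 750 and 1030; adjusted p = 7.17e-06). On day 9 the groups overlapped (1226, 1000 and 1116 against 861, 1052 and 766), and the difference of 0.33 passed the test (adjusted p = 0.0321) but missed it under median-of-ratios scaling (0.113, adjusted p = 0.48), in a fit of the 2 populations alone (adjusted p = 0.0651) and without any 1 of 4 of the 6 replicates (adjusted p from 0.0654 to 0.181). On day 16 the sign was turned, with 1146, 1364 and 1411 in CD43+ and 1697, 1598 and 1561 in CD43- cells (-0.31 ± 0.13, adjusted p = 0.0383). This difference missed the test without any 1 of the CD43- replicates or CD43+ replicate 1 (adjusted p from 0.0519 to 0.186). The same transporter also serves iron uptake apart from transferrin, and the isoforms of the gene are not separated in these values.

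SLC25A37, the mitochondrial importer that supplies haem synthesis, had the tightest separation of the 10 genes on day 6. The CD43+ samples held 7637, 8088 and 7780, and the CD43- samples 744, 798 and 777. The difference was 3.34 ± 0.14 (10.13-fold, adjusted p = 4.02e-16 in limma), and on day 9 it was 3.52 ± 0.14, from values of 10446, 6592 and 11204 against 786, 768 and 853. Later the CD43+ values were lower and the CD43- values higher. On day 12 they were 3167, 3862 and 3822 against 1714, 1936 and 2338, and on day 16 they were 4481, 3945 and 4434 against 2960, 2664 and 3016. The groups were still apart, with differences of 0.86 and 0.57 that passed the test (adjusted p = 3.43e-06 and 0.000612) below the 4-fold limit.

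FTH1, the ferritin chain with ferroxidase activity, was higher in CD43+ cells on each of the 4 days and was called on day 16. In CD43+ cells its values were 20431, 29030 and 20431 on day 6, 18776, 22847 and 22847 on day 9, 37190, 22847 and 20431 on day 12, and 48061, 90700 and 90700 on day 16. Day 12 replicate 1, the sample at 37190 and also the one with the lowest TFR2 value of its group, stood apart in marker sums, with 110949 for the macrophage list against 36125 and 28802 and 11075 for the erythroid list against 29157 and 19491. The part of these cells in its FTH1 value was not tested. In the 12 CD43- samples FTH1 values lay between 9728 and 13327, and they lay in the same range in the unsorted samples. No CD43- sample overlapped the CD43+ samples. The differences were 0.93, 1.04, 1.34 and 2.48 ± 0.19 on days 6, 9, 12 and 16, all past the test (adjusted p between 7.16e-12 and 0.000196). The day 16 value is a step at the top of the table: 10 genes of every sample share the highest value, 90700, and the next value down is 48061, so the size of the day 16 rise is set by these steps. In ranks, FTH1 stood between 31 and 71 in CD43+ samples of days 6 and 9 and between 1 and 11 on day 16, counted from the highest of the 20255 genes, and between 121 and 211 in CD43- samples. Rank 1 is shared by the 10 genes at 90700. Since the values follow the order among genes of similar GC content, these ranks compare FTH1 between samples and not with all other genes. FTH1 also lies opposite BEST1, and as the use of strand in the counting was not stated, reads of the overlap cannot be told apart.

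FTL, the chain that favours mineral nucleation, moved less than FTH1 and was called on none of the 4 days. It was 37178 in each of the 3 day 16 CD43+ samples, a shared step of the table with an SD of 0, against 20412, 20412 and 18763 in CD43- cells (0.91 ± 0.19, adjusted p = 0.000183). On day 12 the CD43+ samples held 37178, 37178 and 29015 and the CD43- samples 13319, 12007 and 22830 (1.15 ± 0.19, adjusted p = 7.85e-06). The groups were apart on both days. They overlapped on days 6 and 9, where the differences were 0.28, which missed the test (adjusted p = 0.246), and 0.60, which passed it (adjusted p = 0.00832) and missed it under median-of-ratios scaling (0.39, adjusted p = 0.0959), in a fit of that day alone (adjusted p = 0.0576) and without CD43- replicate 2 (adjusted p = 0.0807). Of the ferritin pseudogenes in GENCODE v29, 25 of FTH1 and 16 of FTL, 0 were in the table, and reads that these copies share with the genes are an uncertainty of both values.

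SLC40A1, which encodes ferroportin, the only known iron exporter, did not share the CD43+ side of the storage genes. On day 6 the CD43+ samples held 1233, 521 and 486 and the CD43- samples 1601, 966 and 3460, and on day 9 they held 2316, 2303 and 2188 against 3247, 9728 and 1740. The groups overlapped on both days, and single CD43- samples, replicate 3 on day 6 and replicate 2 on day 9, stood well above the rest. On day 12 the values were 1125, 1095 and 900 against 2442, 7165 and 2938, and on day 16 they were 3822, 3862 and 2258 against 5562, 5914 and 5486. On these later days every CD43+ sample lay below every CD43- sample. The differences were -1.37 ± 0.46 on day 6 (adjusted p = 0.0146), -0.75 on day 9 (adjusted p = 0.154), -1.84 on day 12 (adjusted p = 0.000853) and -0.81 on day 16 (adjusted p = 0.118, with a 95% interval from -1.75 to 0.13). In a fit of the day 16 populations alone the last of these passed the test (SE 0.20, adjusted p = 0.00752). The spread of 1 sample weighed on several of them. Without CD43- replicate 3 the day 6 difference was -0.87 and missed the test (adjusted p = 0.133), as it did without CD43+ replicate 2 or 3 (adjusted p = 0.0671 and 0.0725), and that sample also had the lowest endothelial marker sum of its group, 36466 against 86620 and 116152. With the replicate block, which applies on day 6, the same difference had an adjusted p of 0.0507 in a fit of that day alone (0.0624 there without the block) and of 0.0154 in the fit of all samples. Without CD43- replicate 2 the day 9 difference was -0.07 (adjusted p = 0.907) and the day 12 difference -1.37 (adjusted p = 0.0139). Without CD43- replicate 3 the day 9 difference was -1.31 and passed the test (adjusted p = 0.0149). Without CD43- replicate 1 or 3 the day 12 difference was -2.15 or -2.01, which made SLC40A1 a call on the lower side and 3 calls on that day. The part of these other cells in the values was not tested.

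IREB2 and ACO1, the paired iron regulatory proteins, were both lower in CD43+ than in CD43- cells on day 16. IREB2 was higher in CD43+ than in CD43- cells on day 6 (2543, 2442 and 2374 against 1673, 1714 and 1688; 0.54 ± 0.08, adjusted p = 6.51e-06) and on day 9 (0.57, adjusted p = 1.1e-06), and lower on day 16 (2340, 2535 and 2130 against 3282, 3426 and 3228; -0.51, adjusted p = 6.13e-06). The CD43+ level stayed between 2130 and 2556 on all 4 days, so the sign turned with the CD43- values. ACO1, which acts as cytosolic aconitase when it holds an iron-sulphur cluster, was lower in CD43+ cells on day 12 (463, 501 and 497 against 770, 962 and 810) and day 16 (482, 460 and 410 against 996, 839 and 936). These differences were -0.79 and -1.03 ± 0.10 (adjusted p = 4.24e-08 and 3.42e-10), and no samples overlapped. On days 6 and 9 the differences of 0.19 and -0.20 missed the test (adjusted p = 0.106 and 0.0724), the second of which passed it under median-of-ratios scaling (-0.41).

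**Figure D3:**
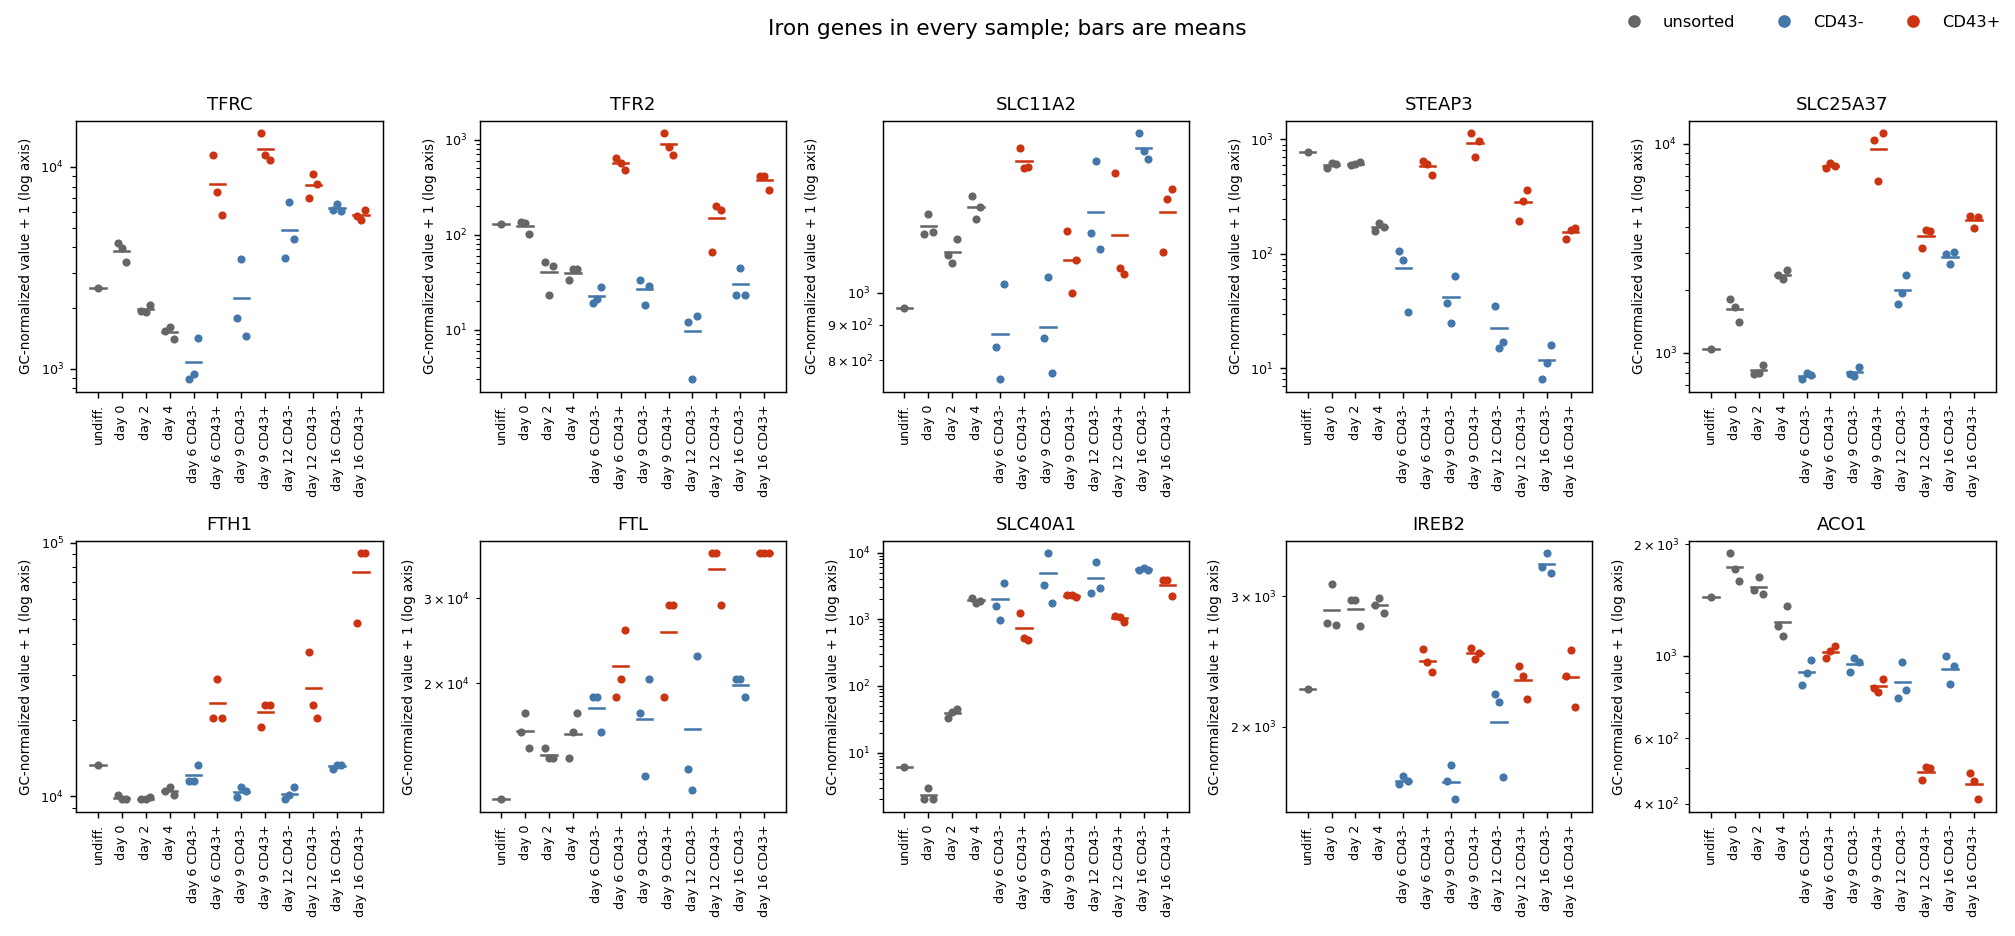
GC-normalized value plus 1 of each of the 10 genes (log axes, each panel with its own range) in every sample of the 12 populations; points are samples, bars are means. In CD43+ cells TFRC has its highest mean on day 9 (12325.7) and SLC25A37 its highest on days 9 and 6 (9414.0 and 7835.0), FTH1 stands highest in day 16 CD43+ cells (48061 to 90700), and SLC40A1 goes from 1 or 2 on day 0 to over 1700 on day 4.

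Within the CD43+ cells, TFRC, STEAP3, SLC25A37 and ACO1 fell and FTH1 rose between day 9 and day 16, where the sort also took in CD45. The steps between were as follows. From day 6 to day 9, 0 of the 10 genes were called (3.56% of all genes higher and 3.97% lower, limma), while SLC40A1 rose by 1.74 ± 0.46 (adjusted p = 0.00449) and SLC11A2 and ACO1 fell under 4-fold (-0.48 and -0.31). The fall of ACO1 missed the test without day 6 replicate 3 or day 9 replicate 2 (adjusted p = 0.0627 and 0.0607). Without replicate 1 of the day 6 CD43+ cells, SLC40A1 was called (2.17). At an unadjusted p below 0.05, 4 genes passed, the other being TFRC (0.63, adjusted p = 0.0592). From day 9 to day 12, 1 gene was called lower, TFR2 (-2.70 ± 0.45, adjusted p = 1.38e-05), and 0 higher, against 6.54% and 8.45% of all genes. STEAP3, SLC25A37, SLC40A1, ACO1 and TFRC fell under 4-fold, with log2 changes of -1.74, -1.35, -1.13, -0.77 and -0.59. The falls of SLC40A1 and TFRC missed the test under median-of-ratios scaling (adjusted p = 0.0762 and 0.151), that of SLC40A1 also without any 1 of the 6 replicates (adjusted p from 0.0599 to 0.0976), and that of TFRC without any 1 of 4 of them (adjusted p from 0.0644 to 0.175). From day 12 to day 16, 0 genes were called (3.79% of all genes higher and 5.26% lower, limma), and 4 of the 10 had an unadjusted p below 0.05. FTH1 rose 2.83-fold, SLC40A1 3.11-fold and TFR2 2.75-fold (adjusted p = 5.52e-07, 0.00526 and 0.0111). Without day 12 CD43+ replicate 1 the TFR2 value on the log2 scale was 0.94 in place of 1.46 and missed the test (adjusted p = 0.11).

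Day 16 set directly against day 9 compared the CD43+ cells rich in macrophage and neutrophil markers with those rich in erythroid markers. The day 16 cells were also sorted on CD45, so day and sort cannot be told apart here. One gene was called, STEAP3, at -2.57 ± 0.37 (5.92-fold lower, adjusted p = 1.09e-06), and 0 were called higher, against 6.22% of all genes called lower and 7.82% higher. TFR2, SLC25A37, TFRC and ACO1 fell under 4-fold, with log2 changes of -1.24, -1.10, -1.08 and -0.88 (adjusted p between 1.17e-08 and 0.0212). FTH1 rose by 1.78 ± 0.19 (adjusted p = 7.27e-09) and FTL by 0.57 ± 0.19 (adjusted p = 0.0142). Without day 9 CD43+ replicate 1 the FTL value was 0.36 and missed the test (adjusted p = 0.14). The fall of TFR2 also missed it without that sample (adjusted p = 0.0925) and without day 16 CD43+ replicate 3 (adjusted p = 0.0801). Without replicate 1 of the day 16 CD43+ cells, the one at 48061, FTH1 was called too (2.08), which made 2 calls. SLC40A1 went from 2316, 2303 and 2188 to 3822, 3862 and 2258, a difference of 0.50 with a 95% interval from -0.43 to 1.44. Over the same span 12 of 16 erythroid markers were called lower and 0 higher, 14 of 14 macrophage and 9 of 10 neutrophil markers were called higher and 0 lower, and 0 of 13 proliferation genes were called higher and 1 lower. The proliferation genes had a median log2 change of -0.972, beside -0.115 over all genes. Their sum lay between 53722 and 55180 on day 9 and between 22531 and 27604 on day 16. How much of the change in the iron genes goes with these cell types or with proliferation was not tested.

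Whether a CD43 difference was of another size on day 16, with its added CD45 sort, than on day 9 was tested as a term of its own. It was called for 2 of the 10 genes, both downwards (5.15% of all genes), and for 0 upwards (6.51%). The change was -2.94 ± 0.19 for SLC25A37 (adjusted p = 1.82e-11) and -2.67 ± 0.35 for TFRC (adjusted p = 1.26e-06), whose differences shrank. IREB2, ACO1 and SLC11A2 changed in the same direction under 4-fold (-1.08, -0.84 and -0.64), and FTH1 in the other (1.44 ± 0.27, adjusted p = 0.000114), so that 6 of the 10 passed the test at any size, as 37.7% of all genes did. The change of SLC11A2 missed the test under median-of-ratios scaling (-0.45, adjusted p = 0.0642). TFR2, STEAP3, FTL and SLC40A1 missed the test, with changes of -1.40, -0.77, 0.31 and -0.07. With a pseudocount of 10, STEAP3 (-1.25, adjusted p = 0.0216) and TFR2 (-1.34, adjusted p = 0.0223) passed it, and TFR2 also did in a fit of only the populations compared (adjusted p = 0.0256). That scaling moved the median over all genes by -0.21 to 0.17 over the 12 comparisons, and the small changes given above are to be read against that shift.

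TFRC also changed within the CD43- cells. There it went from 888, 939 and 1426 on day 6 to 6134, 6575 and 6063 on day 16, a rise of 2.56 ± 0.25 (5.9-fold, adjusted p = 3.39e-09). STEAP3 was the other call, at -2.56 ± 0.37 (adjusted p = 1.56e-06; -1.91 and no longer a call with a pseudocount of 10), so 1 gene was called higher (6.91% of all genes) and 1 lower (6.26%). SLC25A37, SLC40A1, IREB2 and SLC11A2 rose under 4-fold (1.90, 1.69, 0.97 and 0.91 on the log2 scale, adjusted p between 2.24e-11 and 0.00272). Without day 6 CD43- replicate 3, SLC40A1 was called too (2.18). Of the 13 proliferation genes, 0 were called higher over this span and 6 lower (median -1.98, beside -0.05 over all genes). Their sum went from 16418 to 25184 on day 6 to 4374 to 5365 on day 16. Day 16 CD43- cells also held the blood markers given above. How the TFRC rise goes with proliferation or with these markers was not tested. The day 16 cells were also sorted on CD45, so day and sort cannot be told apart in this comparison.

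SLC40A1 was nearly off in the pluripotent and day 0 cells and came on before blood cells were sorted. Its value was 5 in undifferentiated cells, 1, 2 and 1 on day 0, 32, 40 and 44 on day 2, and 2110, 1754 and 1894 on day 4. Day 4 against day 0 gave a log2 fold change of 9.71 ± 0.46 (adjusted p = 8.43e-16), whose size depends on the pseudocount (10.45 with 0.1 and 7.41 with 10). It was the 1 gene of the 10 called higher (7.28% of all genes), and 0 were called lower (7.01%). SLC25A37 rose by 0.55 ± 0.14, while STEAP3, TFR2, TFRC and ACO1 fell under 4-fold, with log2 changes of -1.80, -1.62, -1.34 and -0.49 (adjusted p between 6.1e-05 and 0.00392). Over these days the sum of 9 mesenchymal markers went from 5891 to 9402 on day 0 to 135685 to 196254 on day 4 (9 called higher), that of 8 endothelial markers from 4708 to 5271 to 33911 to 38054 (7 called higher), and the erythroid sum from 598 to 713 to 2448 to 3009. Their part in the rise was not tested. From day 4 to day 6 CD43+ cells, TFR2 and TFRC were called higher (3.82 ± 0.45 and 2.39 ± 0.25, adjusted p = 9.67e-08 and 1.19e-08) and 0 genes lower, against 6.8% and 7.73% of all genes. STEAP3, SLC25A37 and FTH1 rose under 4-fold (1.76, 1.73 and 1.14), and SLC40A1 fell 2.82-fold (adjusted p = 0.0076), with 1233, 521 and 486 in day 6 CD43+ cells.

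The order of the levels over the 11 replicated populations set the genes apart from each other. For TFRC the highest mean was that of day 9 CD43+ cells, 12325.7 ± 2054.1 (SD, n = 3), whose samples overlapped those of day 6 CD43+ cells (8248.7), and the lowest that of day 6 CD43- cells (1084.3). For SLC25A37 the same 2 populations led and also overlapped, with 9414.0 ± 2473.1 and 7835.0 ± 230.5, and day 16 CD43+ cells followed apart from them with 4286.7 ± 296.8. For FTH1 the day 16 CD43+ cells led with 76487.0 ± 24617.6, apart from day 12 CD43+ cells with 26822.7 ± 9059.3. For SLC40A1 the 3 highest means were those of CD43- cells of days 16, 9 and 12 (5654.0, 4905.0 and 4181.7), which overlapped each other. IREB2 was likewise highest in day 16 CD43- cells (3312.0 ± 102.4), apart from day 4 cells (2917.3). ACO1 went down from 1730.3 ± 150.0 on day 0 to 450.7 ± 36.9 in day 16 CD43+ cells, whose samples overlapped those of day 12 CD43+ cells.

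The other iron genes were taken from lists by function, and their counts are to be read beside the shares of all genes given above for the same days. Of 15 tested genes of iron transport and reduction, 2 were called higher and 1 lower on day 6, 3 and 2 on day 9, and 3 and 3 on both day 12 and day 16. The call with the greatest change was LCN2 on day 6 (5.64 ± 0.59) and day 9 (7.24 ± 0.59), LTF on day 12 (7.74 ± 0.78) and STEAP4 on day 16 (8.05 ± 0.69). LCN2 and LTF, lipocalin 2 and lactoferrin, are iron-sequestering proteins of neutrophil granules, and STEAP4 is a metalloreductase. All 3 had CD43- means below 32 on these days, so these folds start from low values. TF, the gene of transferrin itself, was higher in CD43+ cells on day 9 (2.14 ± 0.65) and lower on day 16 (-3.54 ± 0.65), named here after its values were seen.

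Among the 8 tested chaperones, ferritinophagy genes and systemic regulators, 0 were called higher and 2 to 3 lower on days 6, 9 and 12, and 1 higher and 2 lower on day 16. EPAS1, or HIF-2alpha, a hypoxia factor whose mRNA is known to hold an iron-responsive element, led the falls on day 9 (-4.64 ± 0.28), day 12 (-4.15) and day 16 (-3.70). BMP6, which induces the iron hormone hepcidin in liver, led on day 6 (-2.86 ± 0.68), and rose in CD43+ cells from day 9 to day 16 (2.92 ± 0.68, adjusted p = 0.000641). NCOA4, the receptor that delivers ferritin to the lysosome, was higher in CD43+ cells on all 4 days (1.29, 1.48, 1.87 and 1.59 ± 0.12, adjusted p of at most 1.56e-09) without reaching 4-fold. It is named after its values were seen.

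Of the 9 genes of mitochondrial iron and iron-sulphur clusters reported here, 1 was called higher on day 9 and 0 on days 6, 12 and 16. ABCB10, an inner membrane transporter needed for haem synthesis, was the call, with 2.61 ± 0.15 on day 9 (2077.3 ± 460.0 in CD43+ and 333.7 ± 19.1 in CD43- cells, SD, n = 3). The median of the 9 was 1.06 on day 9, beside 0.24 over all genes, and -0.701 in CD43+ cells from day 9 to day 16, beside -0.115, with 0 of 9 called.

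The 12 haem recycling and export genes had 2 called higher and 2 lower on day 6, 2 and 1 on day 9, 3 and 1 on day 12, and 4 and 1 on day 16. CD163, the haemoglobin-haptoglobin scavenger receptor of macrophages and also one of the macrophage markers, held 51, 54 and 80 in day 9 CD43+ cells and 17368, 15868 and 20424 on day 16, where CD43- cells held 19, 26 and 19 (9.65 ± 0.72, adjusted p = 5.01e-12). HP, haptoglobin, led on day 12 (7.74 ± 0.89), and ABCG2, a transporter that exports haem and porphyrins, on days 6 and 9 as a fall (-4.36 and -3.24 ± 0.48). HMOX1, the haem-degrading enzyme, was 574, 770 and 542 in day 9 CD43+ cells and 4082, 3688 and 4082 on day 16 (2.67 ± 0.30, adjusted p = 2.09e-08). From day 9 to day 16, 5 of these 12 genes were called higher in CD43+ cells and 0 lower, against 7.82% and 6.22% of all genes. The CD43 difference itself was called higher on day 16 than on day 9 for 5 (6.51% of all genes). HMOX1 is named after its values were seen.

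**Figure D4:**
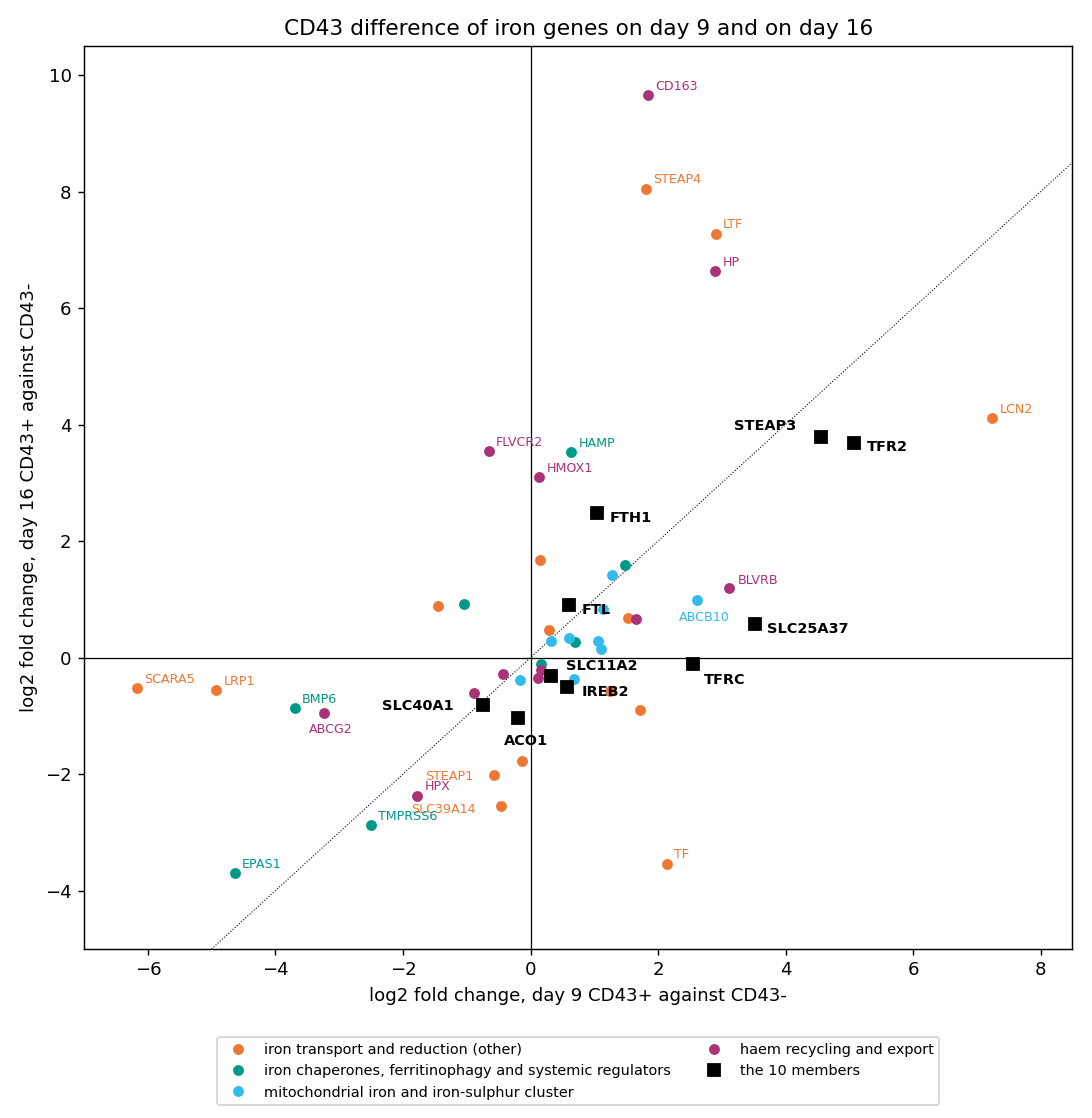
Log2 fold change in CD43+ against CD43- cells on day 9 (horizontal axis) and on day 16 (vertical axis) for the 10 genes (black squares) and the genes of the other iron lists (coloured points); labels mark the 10 genes and those past 4-fold on either day, and the dotted line marks equal values. TFRC (2.55 and -0.12) and SLC25A37 (3.52 and 0.57) lie below the line, and FTH1 (1.04 and 2.48) and CD163 (1.84 and 9.65) above it.

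Across the 11 population means of log2(value + 1), 1 point per population from separate libraries of 1 normalized table, the genes paired as follows, as a description without a test. FTH1 and FTL had r = 0.93, TFRC and SLC25A37 0.86, and TFR2 and STEAP3 0.73, while ACO1 went against FTL (-0.87) and FTH1 (-0.79). SLC40A1 had r of 0.30 and 0.33 with the ferritin genes. Of all tested genes, those most like TFR2 were HBQ1, a globin gene (0.985), NT5M and RTN1. The nearest to TFRC were SMIM1, the gene of the Vel blood group (0.949), RP11-93K22.13 and C20orf203, and the nearest to SLC25A37 were EFHC2 (0.951), CBFA2T3 and PABPN1L. FTH1 was most like MYL12A (0.964), NAPRT and UGT2B28, and FTL was most like RP11-620J15.3 (0.989), VSTM1 and TBC1D10C. For SLC40A1 they were NCOA6 (0.976), MEIS1 and LIX1L, and for STEAP3 TTF2 (0.989), H3F3A and ENSA. ACO1 was closest to FGFR4 (0.980), SLC25A38 and AIF1L, IREB2 to ZNF19 (0.936), ZNF225 and ZNF23, and SLC11A2 to RP11-10N23.2 (0.881), ZNF429 and DCTN6.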

How the data were processed

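The 34 samples were profiled by RNA sequencing. The authors used bowtie2 with RSEM and Ensembl genes on hg38 (their processing notes also list STAR 2.7 and bcl2fastq), then removed GC effects within samples and scaled between samples with EDASeq. What they deposited is a whole-number tag count after this GC correction, treated here as a normalized score and not as a raw count. The GC percent of each gene in the deposited table has no stated source and entered no test. Sequencing depth cannot be read from the values, so errors here come from replicates alone. Samples were sequenced at a pair of companies, and which went to which was not given in the sources used here.

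The tests ran on log2(value + 1), with the trend option of limma 3.58.1 (R 4.3.3) and 1 fit of the 33 replicated samples. Genes at 10 or more in 3 or more of these samples were kept, 19788 in number. Genes were called at an adjusted p below 0.05 and a fold change above 4. Simulated data for the day 9 comparison held 18087 genes, with independent normal noise on the log2 scale. The 200 changed genes were drawn above a set mean level and given a log2 change of 3 in either direction, past the limit for a call. The procedure called 199 of these with the right sign and 0 of the others. The simulation lacked the shared steps of the real values, so it checks that the procedure runs and not its error rate here. The alternatives were pseudocounts of 0.1 and 10, other filters, median-of-ratios scaling, robust variances, a replicate block (for day 6 also in a fit of that day, chosen after the data were seen), fits limited to the populations at hand, a 2-fold limit, and leaving out each replicate.

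To see whether replicate numbers pair the samples, deviations from the population means were correlated between equal numbers of the CD43+ and CD43- cells. On day 6 all 3 values exceeded 0.1 (0.109 to 0.199), and on the later days they lay between -0.015 and 0.108, so pairing was assumed for day 6 alone. The members and lists were chosen with earlier results of these data known, and 1 gene of the mitochondrial list is not reported here. Named were the 10 members, the 3 genes most like each over the population means, markers, and from each other iron list the called gene with the greatest change in each CD43 contrast and between the CD43+ cells of days 9 and 16.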

Additional observations from a re-analysis of the deposited data

Results flagged for a closer look

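Between day 9 and day 16 the CD43 difference of 6 of the 10 genes changed past the threshold when tested as an interaction in the fit of all samples (limma, adjusted over 19788 genes), as did 37.7% of all genes. It was -2.67 ± 0.35 (SE) for TFRC (adjusted p = 1.26e-06), -2.94 ± 0.19 for SLC25A37 (adjusted p = 1.82e-11), -1.08 ± 0.12 for IREB2 (adjusted p = 6.99e-08), -0.84 ± 0.14 for ACO1 (adjusted p = 2.1e-05), -0.64 ± 0.19 for SLC11A2 (adjusted p = 0.00797, and 0.0642 under median-of-ratios scaling) and 1.44 ± 0.27 for FTH1 (adjusted p = 0.000114). These tests used a spread between replicates pooled over all populations of the fit, and not that of the compared days alone. The day 16 cells were also sorted on CD45, so day and sort cannot be told apart. FTH1 is the only one of the 6 with a positive change, and its day 16 values stand at the top of the table.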

How the results depend on the processing

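With a 2-fold in place of a 4-fold limit, members called higher and lower (with the shares of all genes) were 4 and 1 on day 6 (12.9% and 14.2%, SLC40A1 lower added), 5 and 0 on day 9 (21.6% and 20.1%, FTH1 added), 4 and 1 on day 12 (23.9% and 21.5%, 5 in all) and 3 and 1 on day 16 (24.2% and 21.1%, ACO1 lower added). In CD43+ cells they were 1 and 0 from day 6 to day 9 (7.07% and 9.14%), 0 and 4 from day 9 to day 12 (15.3% and 16.9%), 3 and 0 from day 12 to day 16 (11.5% and 9.87%) and 1 and 4, 5 in all, from day 9 to day 16 (15.6% and 18.5%). They were 1 and 3, 4 in all, for the interaction of CD43 with day (11.7% and 12.3%) and from day 0 to day 4 (13.8% and 14.2%), 5 and 1, 6 in all, from day 4 to day 6 CD43+ (15.3% and 14.6%), and 3 and 1, 4 in all, in CD43- cells from day 6 to day 16 (15.3% and 16.3%). With a pseudocount of 10 and the 4-fold limit, STEAP3 left the last of these comparisons, and 1 gene was called. Leaving out each replicate gave 2 to 3 calls on day 12 and in CD43- cells from day 6 to day 16, and 0 to 1 from day 6 to day 9 and 1 to 2 from day 9 to day 16 in CD43+ cells. The replicate block, in the fit of all samples and in a fit of the day 6 populations, changed no count of calls (4 on day 6). Under median-of-ratios scaling 3 small values changed sign: IREB2 from day 9 to day 12 (0.048) and to day 16 (0.083), and the interaction of SLC40A1 (0.123). Leaving out single replicates turned values near 0, none of which passed the test: SLC11A2 on day 12 (-0.274 to 0.011) and from day 9 to day 12 (-0.048 to 0.193), FTH1 from day 6 to day 9 (-0.187 to 0.067), IREB2 from day 12 to day 16 (-0.049 to 0.077) and from day 0 to day 4 (-0.008 to 0.083), the interaction of SLC40A1 (-0.745 to 0.497), FTL from day 0 to day 4 (-0.096 to 0.059) and ACO1 in CD43- cells (-0.022 to 0.102). The causes were not tested. The unknown depth, the steps at the top of the table and 3 replicates a population limit what can be read from small differences.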
